A study of Mus musculus with 2 samples.

Results

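*Elane*, *Prtn3*, *Ctsg*, *Prss57* and *Mpo* encode proteins of the primary (azurophil) granule of neutrophils, and their transcripts were followed here cell by cell through the bone marrow of a WT mouse and of an S1P Cko mouse. The 5 genes were chosen by name from the 6001 genes listed in both libraries, and both libraries listed all of them. No rule on their values was used, but earlier results of these data were known when they were chosen. In the Cko, the protease gene S1P (*Mbtps1*) is ablated in the Osterix (Osx) lineage, that is, in cells in which the promoter of the Osx gene (*Sp7*) is or has been active. The limbs, fore and hind, of 1 WT and 1 Cko mouse of strain C57BL6/J at postnatal day 21 gave the bone marrow cells (BMCs), which were freed by crushing and collagenase, cleared of red blood cells by lysis and sequenced as 1 library per genotype on the 10x Genomics platform (Chromium Single Cell 3′, version 2 chemistry). The Osx promoter drives the Cre, and the study proposes that this promoter is active in hematopoietic cells as well as in skeletal ones. It cites a personal communication of Osx protein in hematopoietic stem cells and granulocyte-macrophage progenitors, but not in mature neutrophils. It also reports that the floxed exon of *Mbtps1* was deleted in neutrophils sorted from all Cko mice examined for it. Which of the cells counted here carry the ablation cannot be read from these libraries.

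A neutrophil makes its granules in a fixed order. Primary granules are filled in the promyelocyte, the secondary granules, with lactoferrin and cathelicidin, in the myelocyte, and gelatinase granules later still. Along this order, transcription of the primary granule genes is highest in the promyelocyte and its immediate precursors, whereas the proteins stay in the cell until the mature neutrophil releases them. *Elane* encodes neutrophil elastase, *Prtn3* proteinase 3 and *Ctsg* cathepsin G, which are serine proteases that digest microbes and matrix. *Prss57* encodes neutrophil serine protease 4, which cuts after arginine. *Mpo* encodes myeloperoxidase, the heme enzyme that makes hypochlorous acid and is also present in monocytes. The proteases are made as inactive forms, activated by cathepsin C (*Ctsc*) and stored on the proteoglycan serglycin (*Srgn*).

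In the GENCODE M21 annotation of GRCm38, 3 of the 5 genes are near each other on the same chromosome. *Prss57* (ENSMUSG00000020323) spans chr10:79781474-79790961 on the minus strand with 6 exons, *Prtn3* (ENSMUSG00000057729) spans chr10:79874476-79883174 on the plus strand with 5 exons, and *Elane* (ENSMUSG00000020125) spans chr10:79886247-79888215 on the plus strand with 5 exons. *Prtn3* and *Elane* were separated by 3072 bases, and *Prss57* and *Prtn3* by 83514 bases. *Mpo* (ENSMUSG00000009350) spans chr11:87793581-87804413 on the plus strand with 14 exons, and *Ctsg* (ENSMUSG00000040314) spans chr14:56099881-56102574 on the minus strand with 5 exons.

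The promoter stretches below are shown because the 5 genes shared their main site of expression. They come from the RefSeq table for GRCm38.p6, which matched 4 of the 5 genes, and are read 5′ to 3′ on the strand of the gene. Capitals mark AGGAAGT, a core recognised by PU.1 and other ETS factors, which was chosen after the sequences had been viewed and was searched on both strands.
Elane promoter, chr10:79886217-79886245, plus strand: gtgtcccagggAGGAAGTagggctgtggc
Prtn3 promoter, chr10:79879562-79879590, plus strand: aaactggaaggAGGAAGTgggacccacag
Ctsg promoter, chr14:56102763-56102791, minus strand: agaggaagaaaAGGAAGTagtcacctgtt
Mpo promoter, chr11:87793550-87793578, plus strand: tggagagagagAGGAAGTtgcctttgtcc
The capitals begin 84 bases before the RefSeq start of *Elane*, 94 before that of *Prtn3*, 206 before that of *Ctsg* and 223 before that of *Mpo*. The RefSeq starts differ from the GENCODE gene bounds given above for all but *Ctsg*. Measured from those bounds, the capitals lie 19 bases before *Elane*, 20 before *Mpo* and 5097 inside *Prtn3*. Of all 32851 promoter windows of 300 bases, 3072 (9.35%) held these letters. The pattern TTNNGNAA of C/EBP factors was in none of the 4 windows and in 40.7% of all windows. The Myb core AACNG occurred 2 times in the *Elane* window, 3 times in *Prtn3*, 3 times in *Ctsg* and 1 time in *Mpo*, and was held by 80.3% of all windows. A match of letters is a description of the sequence and does not show that a factor binds there.

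The coding sequences around the catalytic serine show the motif that these 3 proteases share, and were read from the GENCODE M21 transcripts. Capitals mark the in-frame match to the codons of the conserved glycine, aspartate or glutamate, glycine, glycine and proline, with the serine codon and all wobble bases left free.
Elane coding bases 592 to 621 of 795: tgcttcGGGGACTCTGGCGGACCcttggtc
Prtn3 coding bases 601 to 630 of 762: tgcttcGGAGACTCGGGCGGCCCcttgatc
Ctsg coding bases 589 to 618 of 783: ttcaggGGTGATTCTGGTGGCCCcctggta
These letters had no in-frame match in the 852 coding bases of *Prss57* or in the 2154 coding bases of *Mpo*, which is not a protease.

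The WT library held 6271 cells with a median of 6977 unique molecular identifiers (UMIs, each a tagged RNA molecule) and the Cko library 3662 cells with a median of 7440. The libraries shared 28 cell barcodes. Levels are given as CPM, the UMIs of a gene scaled to a common total of UMIs over the cells compared. *Mbtps1* was at 31.9 CPM in WT cells (95% interval 30.5 to 33.4) and 31.2 in Cko cells (29.3 to 33.1). The 3′ tags counted need not lie in the deleted part, and the gene is used by many cell types, so these levels check nothing. *Sp7* had 38 UMIs in the WT and was not listed in the Cko. Hemoglobin transcripts made up at least 1% of the UMIs in all but 3126 WT and 3177 Cko cells. With 1 library per genotype no test was made, and every interval covers counting error only. Because 3′ UMIs count molecules, levels of different genes can be set side by side without scaling by length.

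Clusters were rebuilt from both libraries together, with the 5 genes left out of the clustering, and were named from markers that did not include them. The main clustering had 17 clusters, and a finer one had 31. The progenitor-like cluster of the main clustering held 578 WT and 481 Cko cells. It was made up of cells of 3 fine clusters. The first, led by *Nkg7*, *Ms4a3*, *Gstm1*, *Cst7* and *Cd63*, was granulocyte-monocyte progenitor-like. The next, led by *Irf8*, *Lgals1* and *Ly86*, was named monocyte-like by its markers. The last was stem and progenitor-like cells led by *Ifitm1*, *Cd34* and *Muc13*.

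The transcripts of the primary granule were concentrated in 1 fine cluster in both genotypes. The *Nkg7*-led cells made up 5.77% of WT and 7.45% of Cko cells but held 70.8% and 66.4% of all UMIs of the 5 genes. The *Irf8*-led cells, 2.68% and 4.45% of the cells, held a further 18.7% and 23.7%. Cells with at least 20 UMIs of the 5 genes, called member-rich below, numbered 747 in the WT (11.9% of cells) and 653 in the Cko (17.8%). These shares are of all cells, and the libraries differed in their red cell precursors. Erythroid-like cells alone were 1783 of the 6271 WT and 325 of the 3662 Cko cells. The shares therefore do not compare the genotypes among the other cells.

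*Elane*, the elastase gene, had the highest level of the 5. In the 362 WT and 273 Cko cells of the *Nkg7*-led cluster it stood at 19095 CPM (18965 to 19226) and 16492 CPM (16368 to 16616). The median cell held 222.5 *Elane* UMIs in the WT library and 238 in the Cko library, with a highest cell of 570 and 725. All cells of the cluster in the WT carried the gene, and all 5 genes together made up a median of 4.19% and 3.99% and at most 30.1% and 20.8% of a cell's UMIs. The level of *Elane* was 5552 CPM in WT and 5268 in Cko cells of the *Irf8*-led cluster, and 546 and 309 in stem and progenitor-like cells. In the *Fcnb*-marked neutrophil-like cluster, named here for *Fcnb*, which came after *Stfa1* and *BC100530* among its leading genes, it was 1124 and 1351 CPM. The *Fn1*-led monocyte-like cells were at 892 and 674 CPM. The order of these clusters was the same in both libraries, and each step of it exceeded the counting intervals.

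The B cell-like cells, which were taken to lack all 5 genes, gave the background level. In them *Elane* was at 30.5 CPM in WT and 23.8 in Cko cells, and the 5 genes together at 86.3 and 84.0. At least 1 *Elane* UMI was seen in 18.6% of WT and 18.5% of Cko B cell-like cells, with no such cell above 3 UMIs, at median depths of 5497 and 6667 UMIs. When each cell was thinned to 3000 UMIs, these shares were 10.7% and 8.10%. Over all cells, *Elane* was seen in 32.2% of WT and 34.3% of Cko cells (21.1% and 24.4% after thinning). Against the B cell-like level, *Elane* in the *Nkg7*-led cells was 625-fold higher in the WT and 693-fold higher in the Cko.

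*Prtn3*, the proteinase 3 gene, reached 7259 CPM in WT and 7473 in Cko cells of the *Nkg7*-led cluster, with medians of 80.5 and 107 UMIs per cell. It was at 4302 and 4864 CPM in the *Irf8*-led cells and at 1048 and 574 in stem and progenitor-like cells. Its level in the *Fn1*-led monocyte-like cells was 1041 CPM in WT and 1003 in Cko cells, above that of *Elane* in the same cells. *Prtn3* had a UMI in 74.8% of these WT cells and 70.1% of these Cko cells at median depths of 6373.5 and 8269.5, against 8.83% and 13.6% of B cell-like cells. It was also the only one of the 5 genes at or above 100 CPM in dendritic-like cells led by *Siglech*, with 235 CPM (178 to 304) in 43 WT and 172 CPM (128 to 225) in 48 Cko cells. These rested on 57 and 52 UMIs, of which 1 cell gave 17 in the WT and 1 cell gave 26 in the Cko.

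*Ctsg*, the cathepsin G gene, had a different distribution. In the *Nkg7*-led cells it was at 4544 CPM in WT and 4805 in Cko cells, and in the *Irf8*-led cells at 2723 and 2663. In basophil or mast-like cells, led by *Prss34*, *Mcpt8* and *Cpa3*, it was at 4112 CPM in 17 WT and 3985 in 23 Cko cells, 1.11- and 1.21-fold below its level in the *Nkg7*-led cells, with medians of 22 and 14 UMIs per cell. *Elane* was at 224 and 79.4 CPM in those same cells, with a median of 0 UMIs in both libraries. In the *Fcnb*-marked neutrophil-like cells *Ctsg* stood at only 26.7 and 37.5 CPM, beside 7.68 and 12.1 in B cell-like cells.

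*Mpo*, the peroxidase gene, was at 7870 CPM in WT and 8961 in Cko cells of the *Nkg7*-led cluster, with medians of 91 and 136 UMIs per cell. The *Irf8*-led cells came close to this, at 5665 and 5855 CPM. In stem and progenitor-like cells *Mpo* had the highest level of the 5 genes, 1732 and 1058 CPM, although the median cell held only 4 and 1 UMIs. It was at 3526 and 3078 CPM in basophil or mast-like cells, 490 and 332 in *Fn1*-led monocyte-like cells, and 182 and 347 in *Fcnb*-marked neutrophil-like cells.

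*Prss57*, the gene of neutrophil serine protease 4, was the lowest of the 5, and the one nearest to background on the monocyte side. It was at 513 CPM in WT and 462 in Cko cells of the *Nkg7*-led cluster, a median of 6 UMIs per cell in both, and 97.8% and 97.4% of these cells had at least 1 UMI (78.2% and 67.8% after thinning). In the *Irf8*-led cells it was at 92.5 and 107 CPM. In *Fn1*-led monocyte-like cells its 6.30 and 6.96 CPM, from 12 and 17 UMIs, were near the B cell-like 5.12 and 6.32. It was instead at 110 and 85.9 CPM in the *Fcnb*-marked and still at 51.9 and 43.2 in the *Chil3*-led neutrophil-like cells, 10.1 and 6.84 times its B cell-like level.

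**Figure D1:**
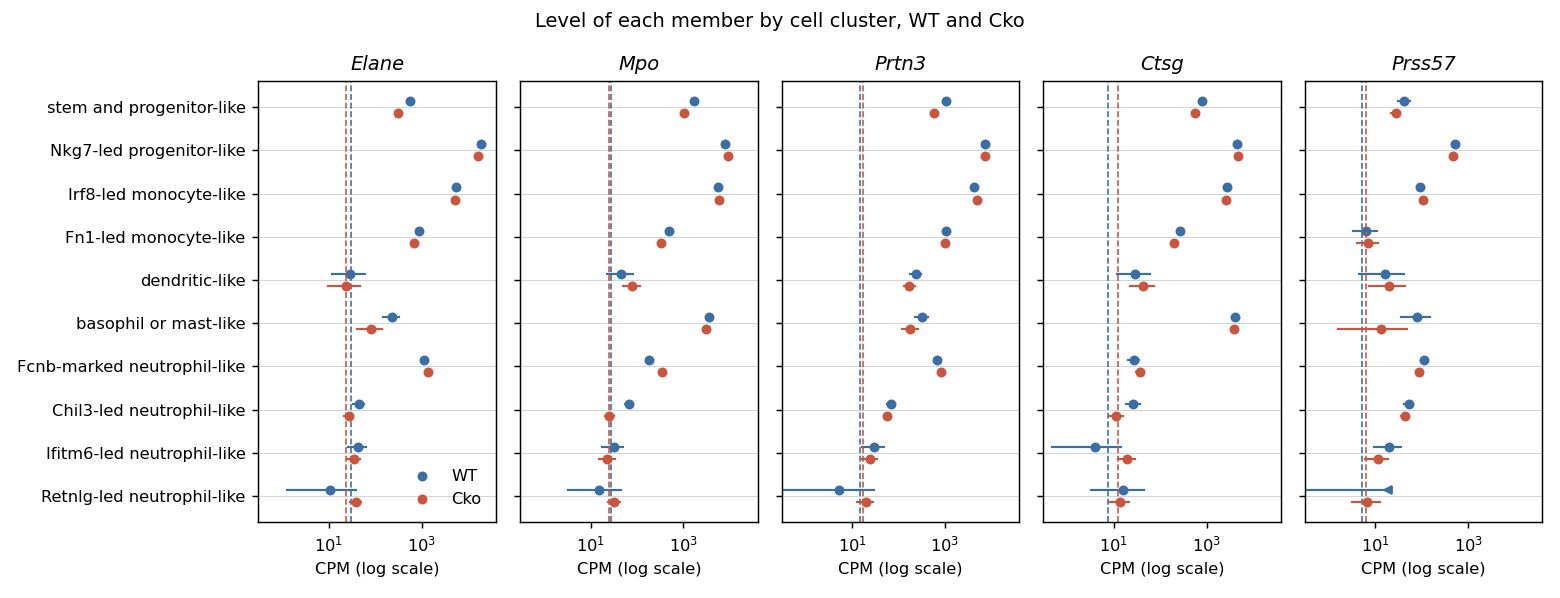
Level of each of the 5 genes (CPM, log axis) in 10 fine clusters of the WT and the Cko, with bars for exact Poisson 95% intervals, dashed lines for the B cell-like level of each library and a left-pointing triangle for the upper limit where no UMI was seen. All 5 genes were highest in the *Nkg7*-led cells, *Ctsg* and *Mpo* stayed high in basophil or mast-like cells, and in the *Fn1*-led cells *Prss57* lay close to the dashed lines.

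The genes differed most in how far they were lower in the neutrophil-like cells. From the *Nkg7*-led to the *Fcnb*-marked cells, *Ctsg* was 171-fold lower in WT and 128-fold lower in Cko cells, *Mpo* 43.2- and 25.9-fold, *Elane* 17.0- and 12.2-fold, *Prtn3* 10.5- and 9.03-fold and *Prss57* 4.64- and 5.37-fold. The order of the 5 genes was the same in both libraries. Toward the *Irf8*-led monocyte-like cells the order was another one, with *Elane* 3.44- and 3.13-fold and *Prss57* 5.55- and 4.31-fold lower, but *Mpo* only 1.39- and 1.53-fold, *Prtn3* 1.69- and 1.54-fold and *Ctsg* 1.67- and 1.80-fold lower. Against the *Nkg7*-led cells, *Ctsg* and *Mpo* were thus the most reduced on the neutrophil side, and *Prss57* and *Elane* on the *Irf8*-led side.

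The *Chil3*-, *Ifitm6*- and *Retnlg*-led neutrophil-like clusters had much less of these transcripts than the *Fcnb*-marked one, and the genes came down to background at different points. An *Acp5*-led fine cluster (115 WT and 22 Cko cells) was also named neutrophil-like, but 33.0% and 54.5% of its cells were called doublets. It held 2751 and 641 UMIs of the 5 genes, of which 13 and 3 member-rich cells gave 95.1% and 96.3%. In the *Chil3*-led cells (222 WT and 365 Cko), *Elane* was at 43.6 CPM in WT and 27.0 in Cko cells, 1.43 times (1.05 to 1.91) and 1.14 times (0.851 to 1.51) the B cell-like level. *Prtn3* was at 69.9 and 55.7 CPM there, still 4.66 and 3.29 times that level. *Mpo* was at 68.5 and 25.4 CPM, where 1 WT cell alone held 64 UMIs. In the WT, 2 member-rich cells held 38.6% of the UMIs of the 5 genes in this cluster, and 50% of them were called doublets. Without them the 5 genes together were at 163 CPM in the WT. *Prss57* and *Prtn3* thus remained clear of background in cells in which *Elane* had nearly reached it.

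The *Retnlg*-led cells, which carried *Mmp8*, *Mmp9* and *Ly6g*, numbered 54 in WT and 308 in Cko marrow. The 5 genes together stood at 46.6 CPM in these WT cells, 0.540 times the B cell-like level (0.245 to 1.03), and at 109 CPM in the Cko cells, 1.30 times that level (1.07 to 1.57). *Elane* was at 10.3 and 37.4 CPM. No *Prss57* UMI was seen in the 54 WT cells, where a floor of 3 UMIs, which is not the Poisson interval, is 15.5 CPM. Only 9 UMIs of the 5 genes were counted in the WT cells, against 146 in the Cko cells.

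Several clusters with a moderate mean held it in a minority of cells. In stem and progenitor-like cells, 45 of 140 WT cells (32.1%) and 50 of 179 Cko cells (27.9%) were member-rich and held 91.5% and 95.4% of the UMIs of the 5 genes. In the *Fcnb*-marked neutrophil-like cells, 60 WT (23.8%) and 82 Cko cells (30.5%) held 80.7% and 91.6%. In the *Fn1*-led monocyte-like cells, 69 WT (24.5%) and 68 Cko cells (24.8%) held 84.6% and 86.2%. Without its member-rich cells the *Fcnb*-marked cluster had 583 CPM of the 5 genes together in WT and 358 in Cko cells, and the stem and progenitor-like cluster 628 and 160. An unnamed cluster led by *Mt2* (474 WT and 43 Cko cells) had 199 CPM of *Elane* in WT and 14.4 in Cko cells, but 8 WT cells held 82.3% of its UMIs of the 5 genes and 75% of those 8 were called doublets.

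The make-up of the primary granule transcripts differed between cell types in both libraries. In the *Nkg7*-led cells *Elane* gave 48.6% of the UMIs of the 5 genes in WT and 43.2% in Cko cells, *Mpo* 20% and 23.5%, *Prtn3* 18.5% and 19.6%, *Ctsg* 11.6% and 12.6% and *Prss57* 1.31% and 1.21%. In the *Irf8*-led cells *Elane* and *Mpo* were nearly level, with 30.3% and 28.1% for *Elane* and 30.9% and 31.2% for *Mpo*. In stem and progenitor-like cells *Mpo* gave 41.8% and 41.7% and *Elane* only 13.2% and 12.2%. The *Fn1*-led monocyte-like cells were led by *Prtn3* (38.6% and 45.4%). Basophil or mast-like cells were led by *Ctsg* (49.8% and 54.3%) and *Mpo* (42.7% and 42%), which left *Elane* at 2.71% and 1.08%. The *Fcnb*-marked neutrophil-like cells had *Elane* at 52.7% and 51.0% and *Prtn3* at 32.3% and 31.3%, with *Ctsg* at 1.25% and 1.42%.

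**Figure D2:**
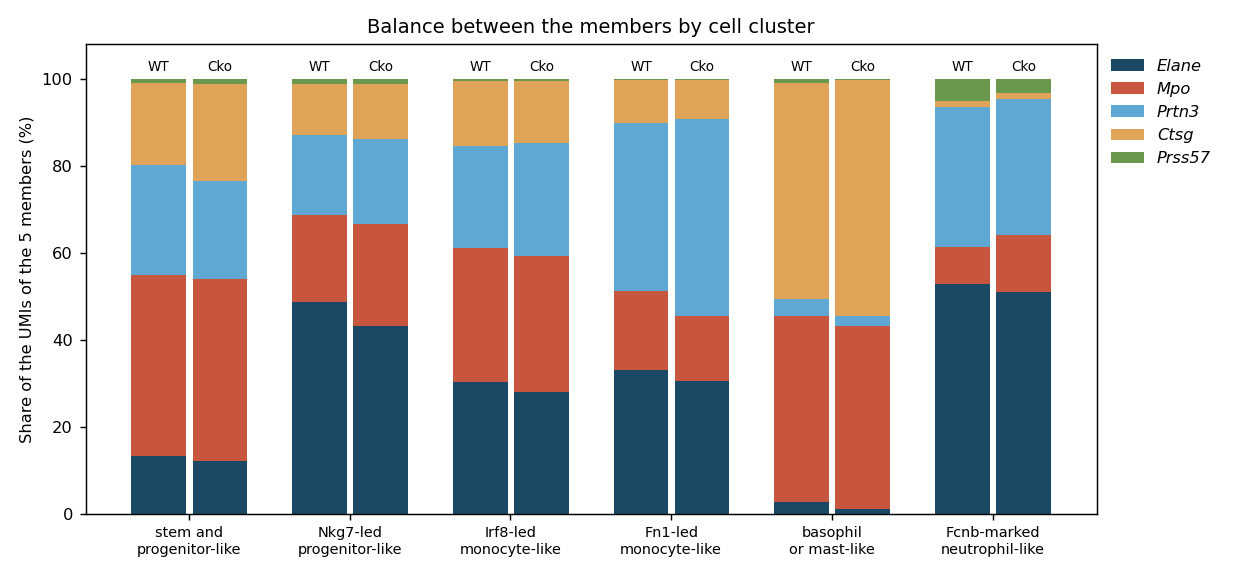
Share of each gene among the UMIs of the 5 genes (%, stacked bars) in 6 fine clusters of the WT and the Cko. *Elane* led in the *Nkg7*-led and *Fcnb*-marked cells, *Mpo* in stem and progenitor-like cells, *Prtn3* in *Fn1*-led cells and *Ctsg* in basophil or mast-like cells, in both libraries.

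Within single member-rich cells, which were picked by their UMIs of these same genes, the leading gene was also counted. *Elane* had the most UMIs of the 5 genes in 96.1% of the member-rich *Nkg7*-led cells of the WT and 86.4% of those of the Cko, with a median share of 50.4% and 44.4%. *Mpo* led in 50.6% and 46.3% of the *Irf8*-led cells, where *Elane* led in 36.3% of the WT cells, and in 82.2% and 72% of the stem and progenitor-like cells. Of the latter, 11 of 45 WT and 21 of 50 Cko cells had at least 20 UMIs of the 5 genes and no *Elane* UMI at all. *Ctsg* led in 73.3% of 15 WT and 66.7% of 12 Cko basophil or mast-like cells, and *Prtn3* in 53.6% and 72.1% of the *Fn1*-led cells, where *Elane* led in 36.2% of the WT cells. The leading gene thus varied from cell to cell in most of these clusters. In the *Fcnb*-marked cells *Elane* led in 78.3% and 73.2%.

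**Figure D3:**
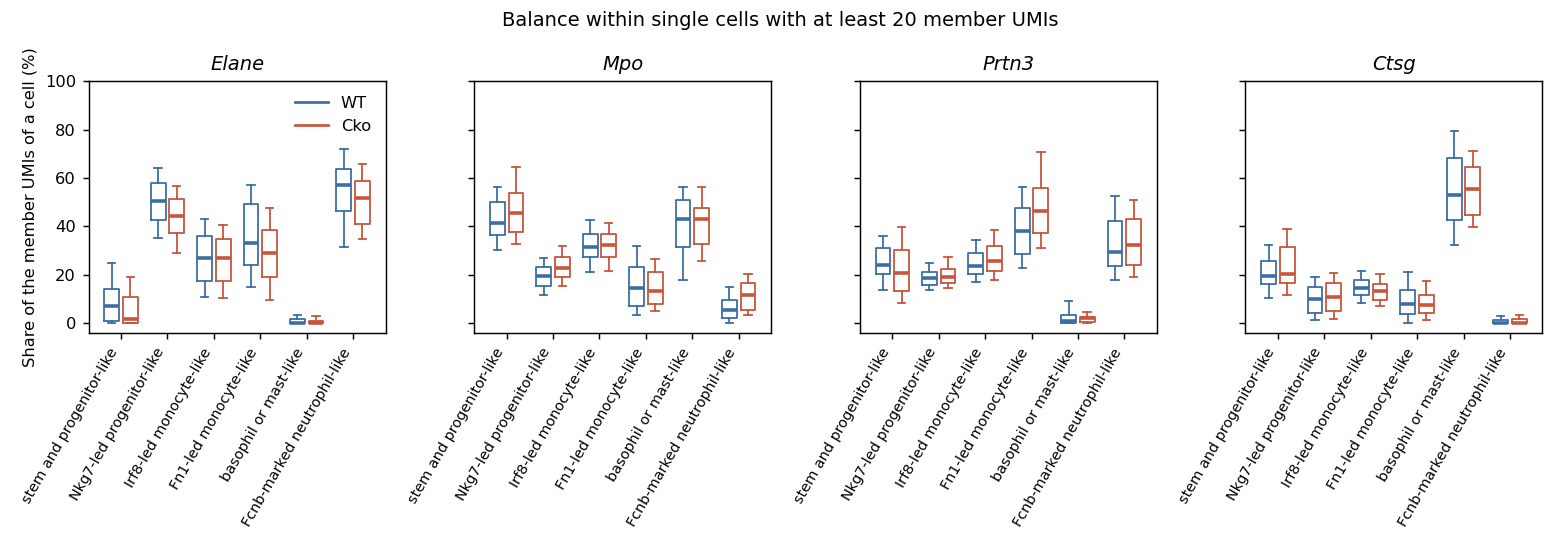
Share of *Elane*, *Mpo*, *Prtn3* and *Ctsg* among the UMIs of the 5 genes within single cells with at least 20 such UMIs (%), by fine cluster and library; boxes give the median and quartiles and whiskers the 10th and 90th percentiles. The median *Elane* share was 50.4% and 44.4% in *Nkg7*-led cells, 27.0% and 27.1% in *Irf8*-led cells and 0 in both libraries in basophil or mast-like cells.

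Most progenitor-like cells carried several of the 5 genes at once. At 3000 UMIs per cell, all 5 were seen in 50.7% of WT and 47.8% of Cko progenitor-like cells, and 4 of them in 42.2% and 43.9%. None was seen in 50.0% and 61.2% of neutrophil-like cells and in 26.3% and 48.6% of monocyte-like cells. As background, at least 1 UMI of the 5 genes was seen in 23.0% of WT and 23.8% of Cko B cell-like cells at the same depth.

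To place the genes along neutrophil maturation, the cells of the progenitor-like and neutrophil-like clusters were given a stage from other transcripts. Cells with at least 0.5% of their UMIs from *Retnlg*, *Mmp8*, *Cxcr2*, *Il1b* and *Csf3r* were called mature. Of the others, those with at least 0.1% from *Ltf* (lactoferrin) were called late immature, and those with at least 1% from *Camp*, *Ngp*, *Ltf* and *Lcn2* early immature. The rest, below these limits, are called cells before secondary granules, although some may have begun to make them, and they also include *Irf8*-led monocyte-like cells. The stages held 435, 141, 604 and 44 WT cells and 386, 123, 940 and 218 Cko cells, from the least to the most mature. Mature cells were 3.59% of the WT and 13.1% of the Cko cells staged, and cells before the secondary granules 35.5% and 23.2%.

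All 5 genes were high before the secondary granules and the early immature cells separated them. *Ctsg* went from 4425 to 1138 CPM in the WT and from 4210 to 1046 in the Cko, which left 0.257 and 0.248 of the level. *Mpo* went from 7405 to 4623 and from 7629 to 4615 CPM, leaving 0.624 and 0.605. *Prtn3*, from 6026 to 5490 and from 5907 to 5399 CPM, kept 0.911 and 0.914 of its level. *Elane* was higher at the early immature stage, with 12473 and 16614 CPM in the WT and 10231 and 11648 in the Cko, and so was *Prss57*, with 319 and 417 and with 272 and 344 CPM.

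This higher level of *Elane* and *Prss57* was not seen within the *Nkg7*-led cluster, a comparison made after the stages had been seen. The stage before secondary granules also held 162 WT and 153 Cko *Irf8*-led cells and 46 stem and progenitor-like cells in each library, which had less *Elane*. Among *Nkg7*-led cells alone (227 and 120 WT cells, 187 and 79 Cko cells), *Elane* went from 20383 to 18035 CPM in the WT and from 16972 to 15462 in the Cko, or 0.885 and 0.911 of its level. *Prss57* went to 0.799 and 0.934, *Prtn3* to 0.719 and 0.891, *Mpo* to 0.530 and 0.631 and *Ctsg* to 0.201 and 0.230 of their levels. *Ctsg*, followed by *Mpo*, thus kept the smallest part of its level in both libraries, by either way of counting.

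The later stages depended on which cells were counted. Over all staged cells, 17 WT and 9 Cko late immature cells of the progenitor-like cluster held 58.7% and 43.5% of the UMIs of the 5 genes at that stage, and 5 and 6 mature ones held 99.0% and 91.7% at the last stage. In the neutrophil-like clusters alone, also chosen after the data had been seen, *Elane* was at 6675 CPM in WT and 4807 in Cko cells at the early immature stage and at 324 and 224 at the late one, 20.6- and 21.5-fold lower. The drop was 20.4- and 16.0-fold for *Mpo*, 9.04- and 11.4-fold for *Prtn3*, 6.34- and 6.67-fold for *Ctsg* and 3.04- and 3.86-fold for *Prss57*. *Ctsg* was by then at 19.3 and 16.7 CPM, 2.52 times (1.72 to 3.73) and 1.38 times (1.01 to 1.91) its B cell-like level. In the 39 WT and 212 Cko mature cells of these clusters, *Elane* had 2 and 49 UMIs (12.8 and 50.9 CPM), *Mpo* 3 and 31, *Prtn3* 3 and 31, *Ctsg* 2 and 11 and *Prss57* 1 and 10. *Elane* in the mature cells was 0.418 times the B cell-like level in the WT (0.0502 to 1.53) and 2.14 times in the Cko (1.51 to 2.99). In the Cko, 1 mature cell alone held 11 of the 49 *Elane* UMIs.

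**Figure D4:**
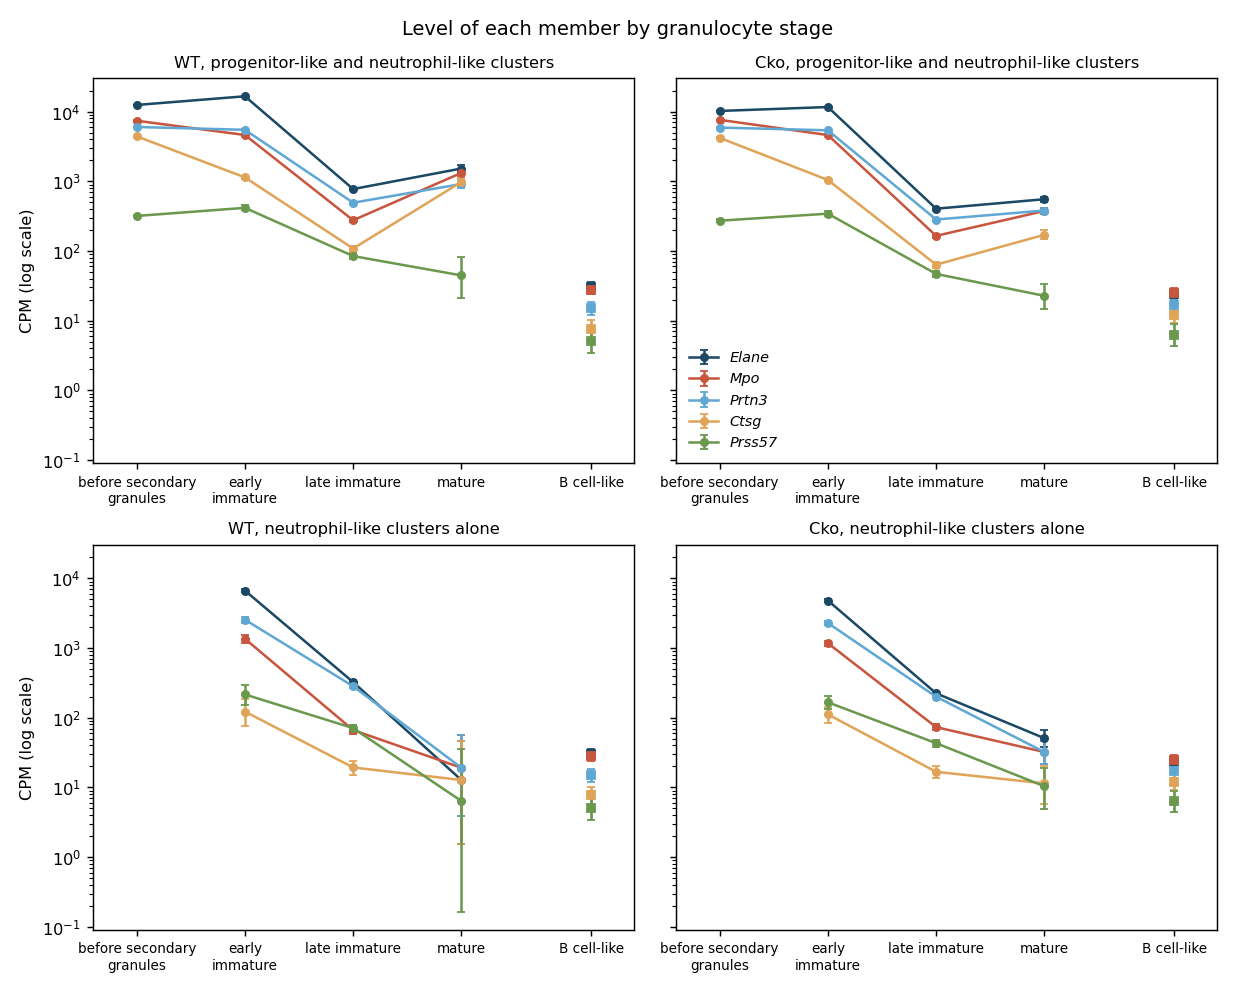
Level of the 5 genes (CPM, log axis) at 4 neutrophil stages in the WT (left) and the Cko (right), over progenitor-like and neutrophil-like clusters (top) and over neutrophil-like clusters alone (bottom), with exact Poisson 95% intervals and squares for the B cell-like level. *Ctsg* went from 4425 to 1138 CPM (WT) and from 4210 to 1046 (Cko) at the first step, and the high top-row values of the mature stage came from 5 WT and 6 Cko progenitor-like cells.

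Between the genotypes, the level over all BMCs and the level within progenitors gave different answers. Over all cells, the 5 genes together were at 4248 CPM in WT and 6915 in Cko cells (log2 ratio of Cko to WT 0.70, 0.69 to 0.71). Each gene was higher in the Cko, with log2 ratios of 0.51 for *Elane*, 0.88 for *Mpo*, 0.83 for *Prtn3*, 0.79 for *Ctsg* and 0.62 for *Prss57*, against a median of -0.03 over all genes. When hemoglobin-bearing cells were left out of both libraries, the ratio of the sum was 0.10 and that of *Elane* was -0.08.

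Within progenitor-like cells the genotypes differed less. The 5 genes together were at 30020 CPM in WT and 28125 in Cko cells (log2 ratio -0.09, -0.10 to -0.09). *Elane* was lower in the Cko, at 13274 against 10802 CPM (-0.30, -0.31 to -0.28), as was *Prss57*, at 340 against 292 (-0.22, -0.30 to -0.14). *Mpo* was slightly higher, at 6798 against 7310 CPM (0.10, 0.09 to 0.12), and *Prtn3* (0.02, 0.00 to 0.04) and *Ctsg* (0.01, -0.01 to 0.03) were level. None of the 5 differed by more than 2-fold, beside 1.59% of the 5171 genes with at least 100 UMIs. With each library clustered on its own the ratio was -0.82 for *Elane* and -0.83 for *Prss57*, and those of *Mpo* (-0.03), *Prtn3* (-0.26) and *Ctsg* (-0.16) turned below 0. The same directions held in the *Nkg7*-led cells alone, where the ratio was -0.21 for *Elane* (-0.23 to -0.20), -0.15 for *Prss57* (-0.24 to -0.06) and 0.19 for *Mpo* (0.17 to 0.21). The Cko cells of that cluster were the deeper ones, with a median of 14772 UMIs against 11744, and 5.52% of the WT against 0.733% of the Cko cells were hemoglobin-bearing, and the part of depth in the ratios was not tested. Without the hemoglobin-bearing cells of the progenitor-like cluster, the ratio of *Elane* was -0.27 and that of *Prss57* -0.19. Over all cells of the early immature stage *Elane* was at 16614 CPM in WT and 11648 in Cko cells (-0.51, -0.54 to -0.49). *Mpo* was level over them, at 4623 and 4615. Of the cells of that stage, 20 of 141 in the WT and 43 of 123 in the Cko were of the neutrophil-like clusters. The progenitor-like cells of the stage had more *Mpo* in the Cko, with 5028 (WT) and 6226 CPM (Cko), and less *Elane*, with 17848 and 14848. For its neutrophil-like cells the *Mpo* values were 1358 (1189.5 to 1544) and 1172 (1082 to 1268), and those of *Elane* 6675 and 4807.

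Stem and progenitor-like cells of the Cko had lower CPM of all 5 genes in the fine clustering. The log2 ratios were -0.82 for *Elane* (-0.97 to -0.67), -0.71 for *Mpo*, -0.87 for *Prtn3*, -0.46 for *Ctsg* and -0.57 for *Prss57* (-1.11 to -0.01). The Cko cells of this cluster were also spread differently over the main clustering, 61 of them falling in an unnamed cluster, and they were deeper, with a median of 13030 UMIs against 7102. The part of these in the ratios was not tested. In UMIs rather than CPM, the 140 WT cells held 4651 of the 5 genes and the 179 Cko cells 6962. In the stem and progenitor-like class of the main clustering, *Mpo* was at 504 CPM in WT and 545 in Cko cells and *Ctsg* at 405 and 526. *Elane*, *Prtn3* and *Prss57* were lower in the Cko there. That class also took in the dendritic-like cells and all 17 WT and 23 Cko basophil or mast-like cells. The basophil or mast-like cells gave 477 of its 608 *Ctsg* UMIs in the WT and 602 of 706 in the Cko. Of its *Mpo* UMIs they gave 409 of 756 and 465 of 732, so its *Mpo* and *Ctsg* values are not those of stem and progenitor-like cells alone. In the *Irf8*-led cells the ratios were -0.08 for *Elane*, 0.05 for *Mpo*, 0.18 for *Prtn3* (0.14 to 0.21) and -0.03 for *Ctsg*.

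In neutrophil-like cells (646 WT and 1186 Cko), *Elane* was at 571 CPM in WT and 492 in Cko cells, *Mpo* at 117 and 138, *Prtn3* at 365 and 312, *Ctsg* at 23.3 and 22.1 and *Prss57* at 74.3 and 47.1. The log2 ratios were -0.22, 0.23, -0.23, -0.08 and -0.66 in that order, and none of the 5 was past 2-fold, beside 2.27% of 4268 genes. These values depended on the clustering. With each library clustered on its own, *Elane* was at 1.4, *Mpo* at 1.64, *Prtn3* at 0.91 and *Ctsg* at 0.97, and without regression *Elane* was at -1.08 and *Mpo* at -0.44. Over 12 alternatives *Mpo* took the other sign in 2 and *Ctsg* in 4, with *Ctsg* down to -1.53, whereas *Prss57* stayed below 0 (-0.81 to -0.11). The classes were not alike in make-up, since the *Retnlg*-led cells numbered 54 (WT) and 308 (Cko). Within the *Fcnb*-marked cells alone, which were similar in number (252 and 269), the ratio was 0.27 for *Elane* (0.19 to 0.34), 0.93 for *Mpo* (0.75 to 1.10), 0.27 for *Prtn3* (0.17 to 0.36) and -0.36 for *Prss57* (-0.63 to -0.09). *Elane* and *Prtn3* thus had opposite directions over the class and within this cluster. Of the *Fcnb*-marked cells, 20 in the WT and 40 in the Cko were at the early immature stage. In the neutrophil-like clusters, *Elane* was at 6675 (WT) and 4807 CPM (Cko) at that stage and at 324 and 224 in late immature cells. *Prtn3* was at 2553 and 2286 and then at 283 and 200, and *Mpo* at 1358 and 1172 and then at 66.5 and 73.3. The part of the stages in the ratios of this cluster was not tested.

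In monocyte-like cells (320 WT and 553 Cko) all 5 genes had lower values in the Cko by the main clustering. *Mpo* was at 459 and 226 CPM (-1.02, -1.16 to -0.89) and was the 1 gene of the 5 past 2-fold, beside 3.32% of 4271 genes. *Elane* was at 838 and 453 CPM (-0.89), *Prtn3* at 981 and 679 (-0.53), *Ctsg* at 252 and 136 (-0.89) and *Prss57* at 6.36 and 4.73 (-0.43, -1.54 to 0.72). This class also took in 40 WT and 278 Cko cells of an unnamed fine cluster led by *Wfdc17* and *H2-Aa*, in which *Elane* was only at 87.4 and 33.2 CPM. Within the *Fn1*-led cells alone (282 and 274) the ratios were -0.56 for *Mpo* (-0.70 to -0.42), -0.40 for *Elane* (-0.50 to -0.31), -0.47 for *Ctsg* (-0.65 to -0.29) and -0.05 for *Prtn3* (-0.14 to 0.03), so that none was past 2-fold there. Over 12 alternatives for the class, *Elane* ran from -2.82 to -0.13, *Ctsg* from -3.50 to -0.08, *Mpo* from -3.70 to -0.01, *Prtn3* from -2.0 to 0.12 and *Prss57* from -3.29 to 0.27, so *Prtn3* took the other sign in 1 and *Prss57* in 2.

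**Figure D5:**
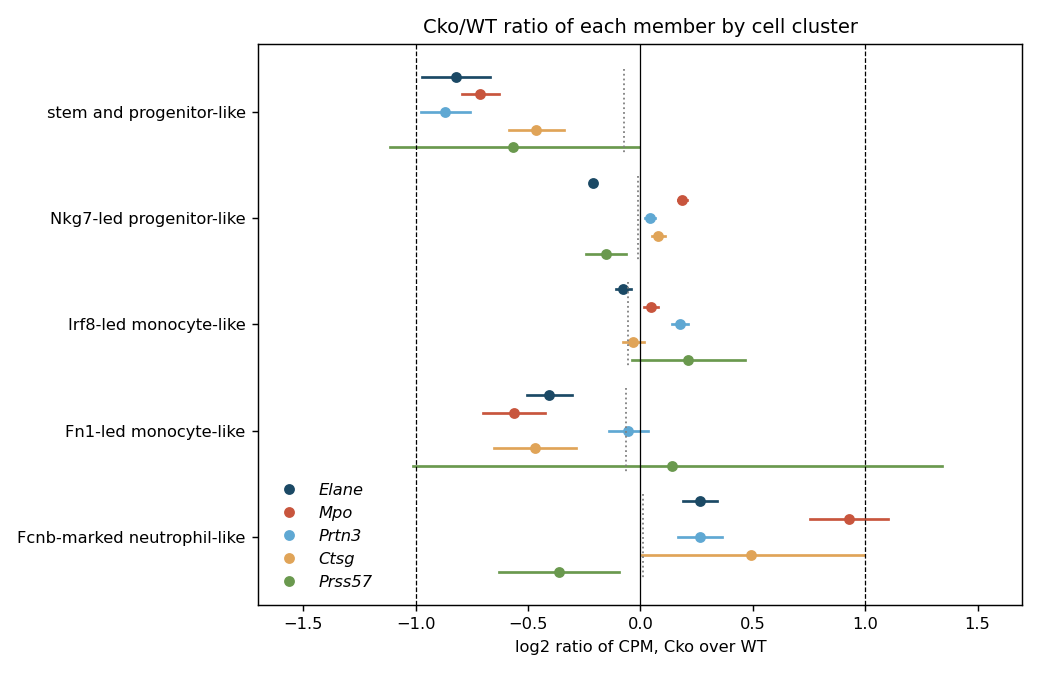
Cko/WT log2 ratio of the CPM of each gene in 5 fine clusters, with exact conditional 95% intervals, dashed lines at 2-fold and a dotted line at the median of all genes. *Mpo* stood highest in the *Fcnb*-marked cells (0.93), and stem and progenitor-like cells were below 0 for all 5 genes. The *Fcnb*-marked cells included 20 WT and 40 Cko cells of the early immature stage.

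The genes that make, store and restrain these proteins were compared in the same progenitor-like cells, counting list genes with at least 100 UMIs. Each count past 2-fold stands beside the 1.59% of all genes past 2-fold there. None of 12 measured genes of a list of 20 other primary granule and lysosomal genes was past 2-fold (median log2 ratio -0.15, all genes -0.03). Among them, *Lyz2* (lysozyme) was at 1181 CPM in WT and 1041 in Cko cells, and *Cd63*, a granule membrane protein, at 851 and 710. Of a list of 17 genes of processing and storage, 16 were measured and none was past 2-fold, with a median of -0.25 (all genes -0.03) and 13 of 16 below 0. *Srgn* was at 1721 and 1707 CPM (-0.01), *Ctsc* at 75.3 and 62.8 (-0.26), and the chaperone *Calr* at 1137 and 874 (-0.38). The ratios of *Hspa5* and *Pdia6*, which encode helpers of protein folding, were -0.34 and -0.26.

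A list of protease inhibitor genes, which also holds cystatins, inhibitors of cysteine cathepsins rather than of these serine proteases, had a median ratio of 0.12 over 10 measured of 16 genes. *Serpinb1a*, which encodes an intracellular inhibitor of elastase, proteinase 3 and cathepsin G, was at 837 CPM in WT and 867 in Cko cells (0.05). The cystatin genes *Cst3* and *Cst7* were at 0.11 and 0.14, and *Slpi*, the gene of a secreted elastase inhibitor, at 0.14. The 2 of 10 past 2-fold (all genes 1.59%), both lower in the Cko, were *Serpina3g* (249 and 80 UMIs, -1.75) and *Serpina3f* (94 and 6 UMIs, -4.08). Of 14 measured of 16 transcription factor genes of the granulocyte-monocyte lineage none was past 2-fold (median -0.03), with *Cebpe*, needed for secondary granules, at 434 and 378 CPM (-0.20), *Spi1*, which encodes PU.1, at 300 and 324 (0.11), and the repressor gene *Gfi1* at -0.53.

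Other genes of the promyelocyte had a median of -0.14 over 19 measured of 20 genes. *Ms4a3* was at 1587 and 1443 CPM (-0.14) and *Nkg7* at 1170 and 625 (-0.90), and *Dmkn* was the 1 of 19 past 2-fold (-1.03, all genes 1.59%). The 12 secondary granule genes had a median of -0.25 (all genes -0.03), with 10 below 0 and none past 2-fold. Among them were *Camp* (cathelicidin) at 10451 and 7252 CPM (-0.53), *Ngp* (-0.40), *Fcnb* (-0.73) and *Chil3* (-0.62). The 7 of 12 late neutrophil genes with enough UMIs had ratios above 0 (median 0.40, all genes -0.03, none past 2-fold), with *Retnlg* at 0.61. Among them, *G0s2* was level (0.00, -0.19 to 0.20), and the intervals of *Clec4d*, *Mmp8* and *Wfdc17* also reached below 0. The cells of the early immature stage were 121 of the 578 WT and 80 of the 481 Cko progenitor-like cells.

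Across the clusters of the main clustering with at least 20 cells (17 for WT and 15 for Cko cells, sharing library and depth), the 5 genes were compared by log2(CPM + 10). Pearson's r was 0.976 (WT) and 0.965 (Cko) between *Mpo* and *Ctsg*, 0.960 and 0.959 between *Elane* and *Prtn3*, 0.947 and 0.939 between *Mpo* and *Prtn3*, and 0.902 and 0.859 between *Elane* and *Mpo*. It was 0.847 and 0.729 between *Elane* and *Ctsg*. *Prss57* was less like the others, at most 0.824 (*Prtn3*) for WT and 0.870 (*Elane*) for Cko cells, and 0.732 and 0.734 with *Ctsg*. Of all other genes, those most like *Elane* included *Ms4a3* (0.886 and 0.862), *Mgl2* (0.860 and 0.858) and *Gstm1* (0.858 and 0.878). *Ms4a3* was also among those most like *Prss57* (0.956 and 0.90), with *Tmem53* (0.890 and 0.973) and *Alas1* (0.931 and 0.884), the gene of the first enzyme of heme synthesis. *Kcnk12* was among those most like *Mpo* (0.953 and 0.947), *Ctsg* (0.928 and 0.948) and *Prtn3* (0.932 and 0.884). These correlations describe a few clusters and were not tested.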

How the data were processed

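The authors aligned the reads and counted UMIs with 10x Cell Ranger (version not given in the sources used here, build GRCm38 by the submitters' processing notes), and deposited whole-number counts per gene and cell for 1 WT and 1 Cko library, without normalization. The WT counts had 6287 barcodes, 7181 genes and 56382459 UMIs, and the Cko counts 3670, 6735 and 34447224. All genes in the tables have a cell with 4 or more UMIs. Barcodes with fewer than 200 genes (16 and 8) were left out. Called doublets (127 WT cells, 2.03%, and 51 Cko cells, 1.39%; Scrublet in scanpy 1.11.5) were kept. Clustering used Seurat 5.3.0 (R 4.3.3) on shared genes without the 5 genes or the *Stfa* family, with 2000 variable genes, 20 components, mitochondrial and ribosomal shares regressed out and resolution 0.4, the lowest with at least 15 clusters, or 1.6 for fine clusters. Names needed at least 3 markers. Levels are CPM of the UMIs of the cells compared. Intervals (95%) are exact Poisson, binomial or conditional and cover counting error only. Past 2-fold was counted among genes with at least 100 UMIs. Values were computed with Python 3.11.15, numpy 2.4.6, pandas 2.3.3 and scipy 1.17.1. Named genes were the 5 genes, the 3 other genes most like each, and up to 4 genes with the highest level from each list of related genes. *Ctsc*, *Gfi1*, *Serpina3f*, *Serpina3g*, *Dmkn*, *Clec4d*, *Mmp8* and *Wfdc17* were named from the lists after their values were seen. The 5 genes and all lists were chosen with earlier results of these data known. Alternatives covered the clustering, naming, doublets, scaling, depth and gene limits.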

Additional observations from a re-analysis of the deposited data

Results flagged for a closer look

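The 16 WT barcodes with fewer than 200 genes, which entered no comparison, held 6 *Elane* UMIs among 64025 UMIs, above the limit of 3 that a count of 0 allows. That limit does not set the count against the *Elane* level of WT cells, 1860 CPM over all cells and 30.5 in B cell-like cells. The 8 such Cko barcodes held 1 *Elane* UMI among 36779.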

How the results depend on the processing

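No paired analysis was possible because each genotype had 1 library, and no replicate could be left out. For the 5 genes together in progenitor-like cells, the Cko/WT log2 ratio of -0.09 stayed below 0 in each alternative run, at -0.45 with each library clustered on its own, -0.0762 with the 5 genes kept in the clustering, -0.0406 at resolution 1.6, -0.0713 without regression, -0.0602 with a class per cell, -0.0226 without globin, ribosomal and mitochondrial genes in the total, -0.0639 relative to the median ratio, -0.0767 without hemoglobin-bearing cells and -0.0853 with each cell weighted equally. In neutrophil-like cells (-0.19) it was 1.19 with each library clustered on its own, -0.47 at resolution 1.6, -0.88 without regression and -0.485 with cells weighted equally. Over all cells (0.70) it was 0.66 with at least 500 genes per cell, 0.47 without globin, ribosomal and mitochondrial genes, 0.73 relative to the median, 0.10 without hemoglobin-bearing cells and 0.42 with cells weighted equally. The 82 genes past 2-fold in progenitor-like cells became 51 with at least 300 UMIs and 297 with no limit. At the mature stage the ratio reversed when neutrophil-like clusters alone were used, an alternative chosen after seeing the data: from -1.67 to 0.97 for the 5 genes together, -1.46 to 1.99 for *Elane*, -1.82 to 0.75 for *Mpo* and -1.26 to 0.75 for *Prtn3*. The few progenitor-like cells of that stage held most of its UMIs, and the cause of the other shifts was not tested. Past 2-fold in monocyte-like cells, of 12 alternatives, were *Mpo* in 6, *Elane* and *Ctsg* in 2 each and *Prtn3* and *Prss57* in 1 each, and in neutrophil-like cells *Elane* in 2 and *Mpo* and *Ctsg* in 1 each. Depth limits the mature neutrophil-like WT values, which rest on 1 to 3 UMIs per gene.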
